A study of Mus musculus with 8 samples.

Results

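Snhg6 and Meg3 are long noncoding RNA genes of the mouse, on chromosomes 1 and 12, and both gave far lower signal in colon of C3H/HeJBir mice than in colon of C57BL/6J mice. The 2 genes were chosen by their strain difference in an earlier reading of these arrays, out of 8251 genes named on the array, and every probe set annotated to them was taken, which gave 4 of 12422 probe sets. Because that difference selected them, it is given below as a description, with no test, and only the comparisons of Il10 genotype are tested.

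RNA of whole colon was hybridised to 8 Affymetrix MG_U74Av2 arrays, each with a pool of equal amounts (7 µg) of RNA from 4 or 5 animals. The 4 groups, with 2 independent pools each (sample 1 and sample 2), were C3H/HeJBir mice labelled with the targeted allele Il10tm1Cgn, zygosity not stated (C3H/HeJBir Il10-null), C3H/HeJBir wild type, C57BL/6J mice with the same allele (C57BL/6J Il10-null) and C57BL/6J wild type. Il10 is the gene of interleukin 10, an anti-inflammatory cytokine of the gut. C3H/HeJBir and C57BL/6J are inbred strains that differ at many loci, so no single locus separates them. An age, 4 weeks, is given only for sample 2 of C57BL/6J wild type, and the sources used here state no other age and no sex.

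Small nucleolar RNA host genes such as Snhg6 are spliced transcripts whose introns carry small nucleolar RNAs, which guide chemical modification of ribosomal RNA. Snhg6 carries Snord87, and the spliced host transcript has also been studied as a regulatory RNA in human tumours. Meg3 is an imprinted gene, transcribed from the maternal chromosome, in the Dlk1-Dio3 domain of chromosome 12. That domain holds protein genes expressed from the paternal copy, such as Dlk1 and Rtl1, and maternally expressed noncoding RNAs and microRNAs. In human cells MEG3 is known for raising p53 activity and for being silenced in several tumours.

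Meg3 is shown here through its start site and the microRNAs it carries, because the array read only the host transcript. The first RefSeq window of its start (GRCm38.p6, chr12:109540746-109541045, plus strand, 250 bases before the start and 50 after it) is printed with motif matches in capitals.
Meg3 promoter window: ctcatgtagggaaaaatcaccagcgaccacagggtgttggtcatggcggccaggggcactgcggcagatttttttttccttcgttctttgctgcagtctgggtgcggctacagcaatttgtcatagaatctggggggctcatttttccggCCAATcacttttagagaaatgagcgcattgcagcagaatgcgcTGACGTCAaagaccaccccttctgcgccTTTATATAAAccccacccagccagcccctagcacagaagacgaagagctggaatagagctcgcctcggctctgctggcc
The capitals mark, in order, CCAAT beginning 100 bases before the start, the cAMP response element TGACGTCA beginning 57 bases before it, and TATAAA, which was found on both strands in overlapping letters beginning 29 and 25 bases before it. All 4 motifs were searched on both strands. TGACGTCA lay in 1.79% of the 32817 RefSeq promoter windows of this length, TATAAA in 13.6% and CCAAT in 37.4%, while the letters GGGCGG, in 35.6% of windows, were not found in the Meg3 window. A second Meg3 window of the table had a match to none of these motifs. Such matches are descriptions of the letters and not of binding.

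RefSeq places 3 mature microRNAs of 2 genes inside Meg3 on its strand, and they are printed with the seed (bases 2 to 8), the stretch that pairs with targets, in capitals.
mmu-miR-1906: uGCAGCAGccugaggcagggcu
mmu-miR-770-5p: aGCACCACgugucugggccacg
mmu-miR-770-3p: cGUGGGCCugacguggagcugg
The seeds differ from each other, and 0 other mature mouse microRNAs of the table share any of them. None of Mir770, Mir1906-1, Snord87, the Meg3 overlap partner Rtl1 or the Snhg6 overlap partner Mcmdc2 had a probe set on the array, so the values below concern the host transcripts alone.

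Deposited values are intensities on a linear scale that the authors had brought to a common level, and median intensity per array ran between 50.1 and 62.2. Precision is limited by having 8 arrays, and p-values measure the spread between pools and not between animals. Arrays were hybridised on 3 days: sample 1 of both Il10-null groups on day 1, sample 1 of both wild-type groups on day 2, and every sample 2 pool on day 3. Each day thus held both strains equally, and only day 3 held both Il10 genotypes. Sample 1 pools read 243 to 452 for Xist, the RNA that silences an X chromosome in females, and sample 2 pools 2.84 to 12.9. Eif2s3y, on the Y chromosome, read 242 and 318 in sample 1 pools of C3H/HeJBir Il10-null and wild type. In C57BL/6J it read 113 and 39.7 in the same order. Sample 2 pools read 391 and 411 in C3H/HeJBir and 263 and 256 in C57BL/6J. In every group, sample 1 and sample 2 thus differed in both hybridisation day and Xist. The spread between them is what the SEs, intervals and p-values below rest on. Differences of pool, day and sex marker cannot be told apart in that spread. The part of sex in the values below was not tested. Sample 1 of C3H/HeJBir Il10-null stood somewhat apart, with a mean rank correlation of 0.915 with the other arrays against 0.931 to 0.945 for the rest, and with 1107 for Prss2, a pancreatic trypsinogen, against 4.69 to 321 elsewhere. Colon epithelial markers were high in every pool (Epcam 961 to 1185, Krt8 7153 to 10383), as were Acta2 of smooth muscle, at 1119 or more, and Dcn of stromal cells, at 1225 or more. The Il10 probe set does not check the labels, since it read 28.3 and 35.4 in C3H/HeJBir Il10-null and 51.7 and 22.0 in C57BL/6J Il10-null pools, against 5.43, 10.9, 9.70 and 7.34 in wild-type pools, and which part of the gene it covers was not analysed here.

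Snhg6 was read by the probe set of sequence AA874329 at a low and nearly constant level in C3H/HeJBir. Its intensity was 37.6 and 33.4 in C3H/HeJBir Il10-null pools and 32.7 and 31.3 in the C3H/HeJBir wild-type pools. In C57BL/6J it was 181 and 335 in the Il10-null pools and 213 and 252 in the wild-type pools. All 4 C3H/HeJBir pools lay below all 4 C57BL/6J pools, with the lowest C57BL/6J value 4.80 times the highest C3H/HeJBir value. The strain means were 33.8 ± 2.73 in C3H/HeJBir and 245 ± 66.6 in C57BL/6J (SD, n = 4 pools each), so the C3H/HeJBir mean was 13.8% of the C57BL/6J mean. The percentage was 13.8% in both genotypes taken alone.

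Meg3 was read by a pair of probe sets that passed the filter. On the probe set of sequence AI852838, the brighter and therefore the one that stands for the gene, the intensity was 56.4 and 61.9 in C3H/HeJBir Il10-null pools and 28.6 and 38.0 in the C3H/HeJBir wild-type pools. The C57BL/6J pools read 279 and 99.3 for Il10-null and 269 and 204 for wild type. Again no C3H/HeJBir pool reached any C57BL/6J pool, but the gap was narrower than for Snhg6, since the lowest C57BL/6J value, of the Il10-null sample 2 pool, was 1.605 times the highest C3H/HeJBir value. The C3H/HeJBir mean of 46.2 ± 15.6 was 21.7% of the C57BL/6J mean of 213 ± 82.6 (SD, n = 4 pools each).

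The other Meg3 probe set, of sequence Y13832, gave the same order of strains with a different pattern inside C3H/HeJBir. It read 13.28 and 72.3 in C3H/HeJBir Il10-null pools and 13.54 and 13.36 in the C3H/HeJBir wild-type pools. In C57BL/6J it read 120.05 and 135 in the Il10-null pools and 201 and 237 in the wild-type pools. Thus 3 of the 4 C3H/HeJBir pools sat close to 11.07, the 20th percentile of all values on the arrays, and the Il10-null sample 2 pool alone stood above them. The C3H/HeJBir mean was 28.1 ± 29.5 and the C57BL/6J mean 173 ± 55.2 (SD, n = 4 pools each), a C3H/HeJBir level of 16.2%.

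The remaining Snhg6 probe set, of sequence AV008160, was dim throughout and did not pass the filter. It read 11.01 and 0.65 in C3H/HeJBir Il10-null, 2.08 and 1.05 in C3H/HeJBir wild type, 2.65 and 4.93 in C57BL/6J Il10-null and 3.02 and 1.94 in C57BL/6J wild-type pools. The strains overlapped on it, and no counterpart of the difference on AA874329 was seen. Its mean of 3.42 lay far below the filter of 37.0, against means of 139 for AA874329, 129.6 for AI852838 and 100.7 for Y13832.

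**Figure D1:**
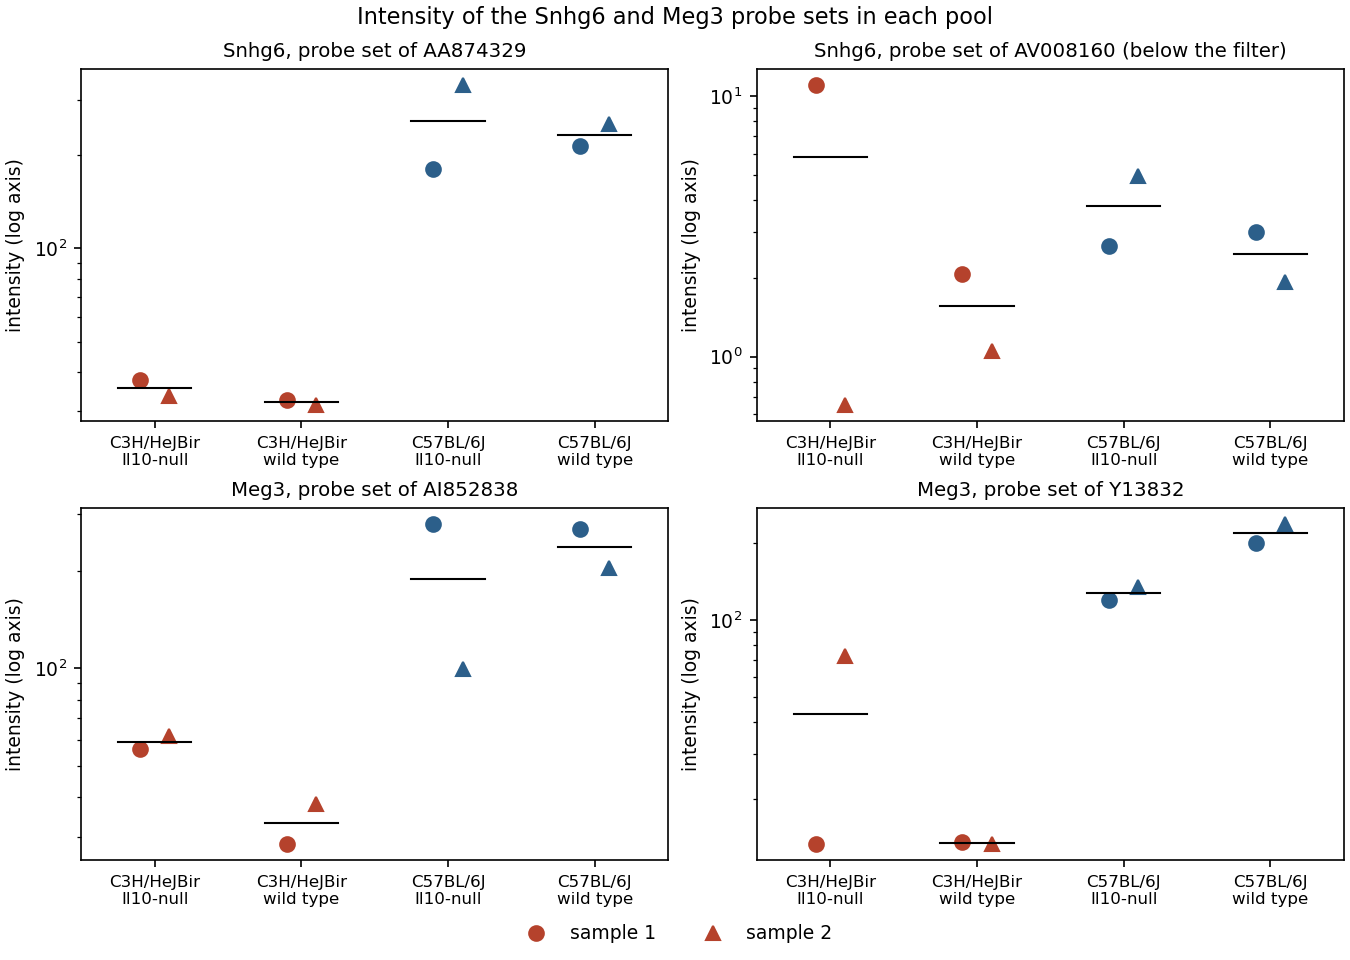
Deposited intensity (log axis) of each Snhg6 and Meg3 probe set in the 8 pools, grouped by strain and genotype; circles are sample 1 pools, triangles sample 2 pools and lines group means. On the 3 probe sets that passed the filter all C3H/HeJBir pools (red) lie below all C57BL/6J pools (blue), and on AV008160 the strains overlap.

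Of the 3 member probe sets tested, 3 had all C3H/HeJBir pools below all C57BL/6J pools, where 284 of all 7453 tested probe sets (3.81%) did, a count that the choice of the genes fixed. On the log2 scale of intensity plus 11.07, which understates the change of dim probe sets, the C3H/HeJBir minus C57BL/6J difference of Snhg6 was -2.47 (SE 0.30) in Il10-null and -2.50 (SE 0.30) in wild-type pools. For Meg3 on AI852838 it was -1.35 (SE 0.42) in Il10-null and -2.48 (SE 0.42) in wild-type pools, and on Y13832 -1.62 (SE 0.49) and -3.23 (SE 0.49) in the same order. Among all tested probe sets by absolute difference, Snhg6 ranked 19 in Il10-null and 26 in wild-type pools, Meg3 on AI852838 ranked 101 and 28, and Meg3 on Y13832 ranked 56 and 14. Snhg6 thus had nearly the same estimate in both genotypes, while the Meg3 estimates were nearer to 0 in Il10-null pools on both probe sets.

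All C3H/HeJBir pools lay below all C57BL/6J pools on these probe sets, so the strain differences had to be negative on each hybridisation day. Only their sizes are described. For Snhg6 they were -1.98 on day 1 (Il10-null), -2.36 on day 2 (wild type) and, on day 3, -2.96 in Il10-null and -2.63 in wild-type pools. For Meg3 on AI852838 they were -2.10 on day 1, -2.82 on day 2 and, on day 3, -0.60 in Il10-null and -2.13 in wild-type pools. The small Meg3 value on day 3 goes with the C57BL/6J Il10-null sample 2 pool, the lowest of its strain at 99.3 on AI852838. On Y13832 they were -2.43 on day 1, -3.10 on day 2 and, on day 3, -0.81 in Il10-null and -3.35 in wild-type pools. Its Il10-null value of -1.62 rested on the C3H/HeJBir pools, being -2.51 without sample 2 of C3H/HeJBir Il10-null and -0.73 without sample 1. The probes' own sequences were not analysed here, so a lower amount of RNA in C3H/HeJBir and poorer binding of its RNA to the probes cannot be told apart. Nor can fewer cells that express a gene be told apart from less of its RNA per cell, since whole colon was measured.

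The order of the 4 group levels differed between the genes. Snhg6 averaged 35.5 ± 2.98 in C3H/HeJBir Il10-null and 32.0 ± 0.948 in C3H/HeJBir wild type, and 258 ± 109 in C57BL/6J Il10-null and 232 ± 27.4 in C57BL/6J wild type (SD, n = 2 pools each). The C57BL/6J genotypes overlapped, and the C3H/HeJBir pools differed by a few units of intensity. Meg3 on AI852838 averaged 59.2 ± 3.88 and 33.3 ± 6.68 in C3H/HeJBir Il10-null and wild type, and 189 ± 127 and 237 ± 45.7 in C57BL/6J Il10-null and wild type. On Y13832 the averages in the same order were 42.8 ± 41.7, 13.5 ± 0.127, 128 ± 10.6 and 219 ± 25.9. On both probe sets Meg3 ran highest in C57BL/6J wild type and lowest in C3H/HeJBir wild type, with overlap between genotypes in C57BL/6J on AI852838 and in C3H/HeJBir on Y13832.

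Between Il10-null and wild-type pools, no difference passed the threshold for Snhg6 or Meg3 in C57BL/6J, or for Meg3 on AI852838 in C3H/HeJBir. The test was limma's moderated linear model over all 7453 tested probe sets with Benjamini-Hochberg adjustment and a threshold of 0.05. It called 1 probe set (0.0134%) for Il10-null against wild type in C3H/HeJBir, and 0 probe sets (0%) in C57BL/6J, for the difference between the strains' Il10 effects, and for the average Il10 effect over both strains. At an unadjusted p under 0.05, 211 probe sets passed in C3H/HeJBir, 118 in C57BL/6J, 112 for the difference and 230 for the average. The wild-type pools entered both these tests and the strain difference by which the genes were selected, so the Il10 effects within a strain and their difference are not free of that choice. In addition, Snhg6 and Meg3 on Y13832 passed the filter of 37.0 only through C57BL/6J, since their C3H/HeJBir means were 33.8 and 28.1. Their Il10 values in C3H/HeJBir, and the differences between strains that use them, are therefore given as descriptions of dim signal, with no p and no interval. For Meg3 on AI852838 the difference between the strains' Il10 effects also carries no test. It equals the strain difference in Il10-null pools minus that in wild-type pools, and strain difference was the basis of choice.

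For Snhg6 the Il10-null minus wild-type difference was 0.11 (SE 0.30) in C3H/HeJBir. In C57BL/6J it was 0.09 (SE 0.30, 95% interval -0.61 to 0.78, limma adjusted p = 1). The C57BL/6J interval allows changes of roughly the same size in both directions. The difference between the effects in the strains was 0.03 (SE 0.43), and the average effect was 0.10 (SE 0.21). Between pools of the same sample number, the C57BL/6J difference was -0.22 for sample 1 and 0.40 for sample 2, so the pools did not share a direction there.

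For Meg3 the Il10 estimates had opposite signs in the strains without passing the test. On AI852838 the Il10-null minus wild-type difference was 0.67 (SE 0.42, interval -0.29 to 1.63, limma adjusted p = 0.999) in C3H/HeJBir and -0.46 (SE 0.42, interval -1.42 to 0.50, limma adjusted p = 1) in C57BL/6J. The difference between these effects was 1.13 (SE 0.59), given as a description. On Y13832 the corresponding values were 0.88 (SE 0.49) in C3H/HeJBir, -0.73 (SE 0.49, interval -1.85 to 0.39) in C57BL/6J and 1.61 (SE 0.69) for their difference. With 3 of the 4 C3H/HeJBir pools at 13.28 to 13.54, the C3H/HeJBir value and the difference are descriptions only. That difference was 0.72 without the C3H/HeJBir Il10-null sample 2 pool and 2.49 without sample 1, and on AI852838 it was 0.43 without the C57BL/6J Il10-null sample 2 pool and 1.82 without sample 1. The average effect over the strains was near 0 on both, at 0.11 (SE 0.30) and 0.07 (SE 0.35).

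The pools behind these Meg3 estimates were not uniform. On AI852838 both C3H/HeJBir Il10-null pools lay above both wild-type pools, as they did for 11.3% of all tested probe sets. Both C57BL/6J Il10-null pools lay below both wild-type pools on Y13832, as they did for 13.6% of all tested probe sets. Choosing genes low in C3H/HeJBir and high in C57BL/6J wild-type pools can favour both directions. In C57BL/6J the AI852838 difference was 0.05 between sample 1 pools and -0.96 between sample 2 pools. In C3H/HeJBir the Y13832 difference was -0.02 between sample 1 pools and 1.77 between sample 2 pools, so 1 pool, sample 2 of C57BL/6J or of C3H/HeJBir Il10-null, carried each of these estimates. Sample 1 pools of the genotypes were hybridised on different days, so day and genotype cannot be told apart for them. Day 3 alone, with 1 pool a group and no test, gave 0.57 in C3H/HeJBir and -0.96 in C57BL/6J on AI852838, and 0.07 in C3H/HeJBir and 0.40 in C57BL/6J for Snhg6.

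**Figure D2:**
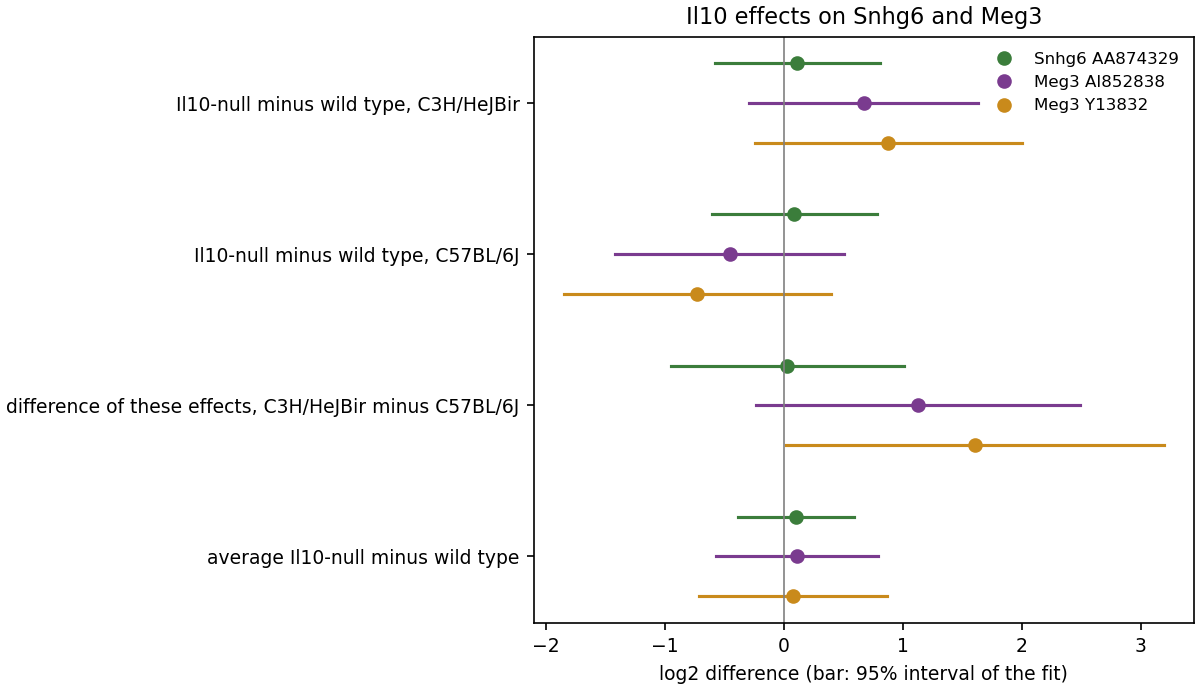
Il10-null minus wild-type log2 difference of the 3 tested probe sets in each strain, the difference of these effects between strains, and the average; points are limma estimates and bars 95% intervals of the fit. The Snhg6 estimates lie near 0, while the Meg3 estimates lie above 0 in C3H/HeJBir and below 0 in C57BL/6J. Bars of Snhg6 and Y13832 in C3H/HeJBir describe dim signal. Those bars, and all bars for the difference and the average, are not read as tests.

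The Meg3 probe sets correlated more closely over both strains than within either. Their Pearson correlation over the 8 pools on the log2 scale was 0.88, but 0.63 within the 4 C3H/HeJBir pools and 0.21 within the 4 C57BL/6J pools. Snhg6 on AA874329 and Meg3 on AI852838 correlated at 0.83 over the 8 pools, at 0.58 within C3H/HeJBir and at -0.96 within C57BL/6J. Within C57BL/6J the pool highest in Snhg6, Il10-null sample 2, was thus the lowest in Meg3 on AI852838, while on Y13832 the lowest was Il10-null sample 1, at 120.05 against 135 in sample 2. The pools divide by strain and by hybridisation day, and these values are descriptions over few points.

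No tested gene next to Snhg6 on chromosome 1 had a strain difference past the threshold. Snhg6 lies near the start of the chromosome, with 5 tested genes before it and the 10 nearest after it taken. None of these 15 passed in either genotype, where C3H/HeJBir minus C57BL/6J called 0.161% of tested probe sets as higher and 0.134% as lower in Il10-null pools, and 0.215% as higher and 0.188% as lower in wild-type pools. Their median log2 difference was -0.09 in Il10-null and 0.04 in wild-type pools, beside -0.02 over all tested probe sets in each. The widest members were Lactb2, at -0.84 in Il10-null pools, and Mcm3, a subunit of the replicative helicase, at 0.61 in wild-type pools. The nearest tested genes were Rrs1, a ribosome assembly factor, and Cops5, the catalytic subunit of the COP9 signalosome. Rrs1 read 60.8 to 69.9 in C3H/HeJBir Il10-null and 51.2 to 58.7 in C3H/HeJBir wild type, against 67.8 to 68.2 and 45.6 to 59.6 in C57BL/6J Il10-null and wild type, so the strains overlapped.

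Around Meg3 on chromosome 12 the 10 nearest tested genes on each side were taken, and again none of the 20 passed. In either direction, 0.134% to 0.215% of all tested probe sets were called between strains in a genotype. The median of the 20 was -0.18 in Il10-null and -0.20 in wild-type pools. Dlk1, a membrane protein related to Notch ligands and the paternally expressed partner of Meg3, was the only other gene of the Dlk1-Dio3 list with a probe set. It read 128 and 102 in C3H/HeJBir Il10-null, 102 and 73.3 in C3H/HeJBir wild type, 104.5 and 119 in C57BL/6J Il10-null and 108 and 102 in C57BL/6J wild type. The strains overlapped for Dlk1, with a log2 difference of 0.03 in Il10-null and -0.25 in wild-type pools (SE 0.25 each). Degs2, a sphingolipid desaturase and hydroxylase, and Klc1, a kinesin light chain, had all C3H/HeJBir pools below all C57BL/6J pools. That order held for 3.81% of all tested probe sets. Serpina3n, a serine protease inhibitor, had all C3H/HeJBir pools above, an order whose share over all tested probe sets was not counted. Klc1 differed by -0.53 in Il10-null and -0.74 in wild-type pools and Serpina3n by 0.96 and 0.75, none of which passed the test.

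**Figure D3:**
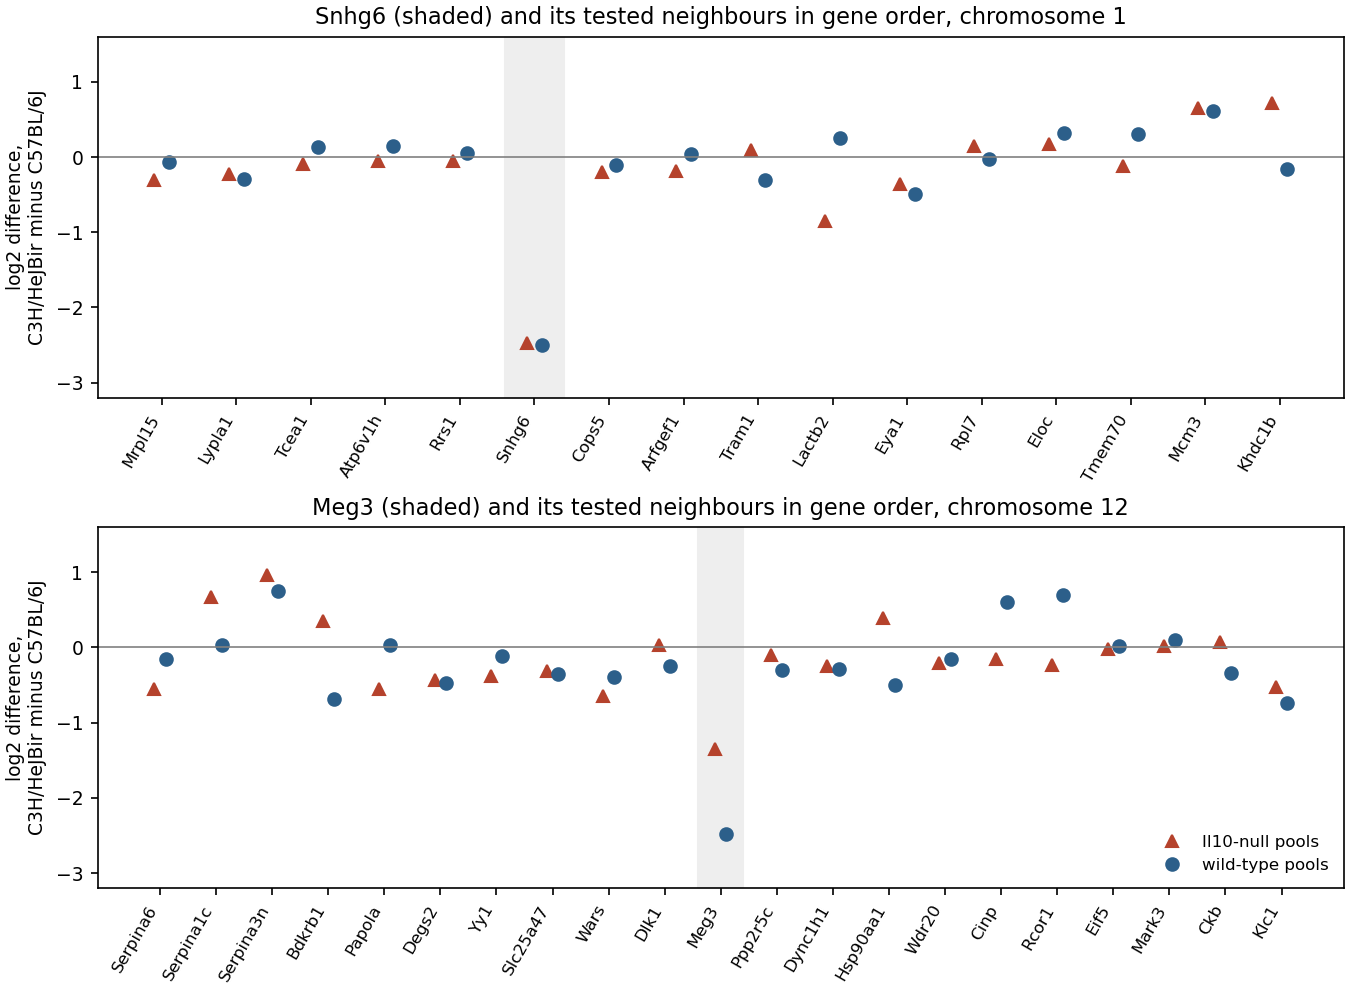
C3H/HeJBir minus C57BL/6J log2 difference of Snhg6 (upper panel) and Meg3 (lower panel, AI852838), each shaded, and of the tested genes next to them in gene order; triangles are Il10-null and circles wild-type pools. The neighbours lie between -0.84 and 0.96, while Snhg6 lies at -2.47 and -2.50 and Meg3 at -1.35 and -2.48.

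Among other genes that host small nucleolar RNAs, 22 of the 23 on the array were tested, and in wild-type pools 1 was called lower in C3H/HeJBir and 0 higher, with 0 called in Il10-null pools. Over all tested probe sets 0.188% were called lower and 0.215% higher in wild-type pools, and 0.134% lower and 0.161% higher in Il10-null pools. The median of the list was 0.07 in Il10-null and 0.03 in wild-type pools. The gene called was Gas5, another noncoding host on chromosome 1, on the brightest of its probe sets, with a log2 difference of -3.43 (SE 0.33, limma adjusted p = 0.00517) in wild-type pools. Unlike Snhg6, Gas5 was low in the C3H/HeJBir wild-type pools only, at 86.4 and 119.6, against 854.5 and 1439.7 in C3H/HeJBir Il10-null, 998 and 1351 in C57BL/6J Il10-null and 1065 and 1362 in C57BL/6J wild-type pools. It was also the probe set called for Il10 in C3H/HeJBir, at 3.31 (limma adjusted p = 0.0450), although the test of the difference between strains did not pass (3.36, limma adjusted p = 0.4797). Its other tested probe set differed by -0.82 between strains in wild-type pools and did not pass.

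Epb41l4aos, a noncoding host of small nucleolar RNAs, was the only tested member of that list with all C3H/HeJBir pools below all C57BL/6J pools. That order held for 3.81% of all tested probe sets, and 1 list member on the array had all C3H/HeJBir pools above. The Epb41l4aos values follow. It read 85.9 and 99.9 in C3H/HeJBir Il10-null, 117 and 106 in C3H/HeJBir wild type, 186 and 168 in C57BL/6J Il10-null and 162 and 174 in C57BL/6J wild type. Its differences of -0.85 (limma adjusted p = 0.3145) in Il10-null and -0.55 (limma adjusted p = 0.8075) in wild-type pools did not pass.

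The proteins that build box C/D ribonucleoproteins or degrade spliced host transcripts by nonsense-mediated decay showed no call in 8 tested of 11 on the array. In either direction, 0.134% to 0.215% of all tested probe sets were called between strains in a genotype. The median strain difference of the list was 0.09 in Il10-null and -0.05 in wild-type pools. Xrn1, the 5′ to 3′ exonuclease that completes decay of such transcripts, had the widest difference, 0.84 (SE 0.25, limma adjusted p = 0.54) in Il10-null pools. Fbl, the methyltransferase of these particles, read 241 to 291 in C3H/HeJBir and 238 to 266 in C57BL/6J.

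For the gene groups related to Meg3, none of 21 tested imprinted genes outside chromosome 12 was called in either genotype, with medians of -0.09 in Il10-null and -0.14 in wild-type pools. The widest were Cdkn1c, a maternally expressed inhibitor of the cell cycle, at -0.76 in Il10-null pools and Igf2, a paternally expressed growth factor, at 0.74 in wild-type pools. Gatm, an enzyme of creatine synthesis, was the only tested one with all C3H/HeJBir pools above all C57BL/6J pools. The share of all tested probe sets in that order was not counted. In either direction, 0.134% to 0.215% of all tested probe sets were called between strains in a genotype. Of 11 tested p53 targets none was called, the medians being -0.20 in Il10-null and -0.18 in wild-type pools, with the anti-proliferative gene Btg2 widest at -1.05 (SE 0.23, limma adjusted p = 0.182) in Il10-null pools. Cdkn1a, the p53-induced inhibitor of the cell cycle, read 343 to 1104 in C3H/HeJBir and 353 to 1172 in C57BL/6J, higher in sample 2 than in sample 1 pools of every group. Of 7 tested other long noncoding RNAs, which included Gas5, no member besides Gas5 was called. Gas5 was also the only gene of the 17 lists called in an Il10 comparison.

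**Figure D4:**
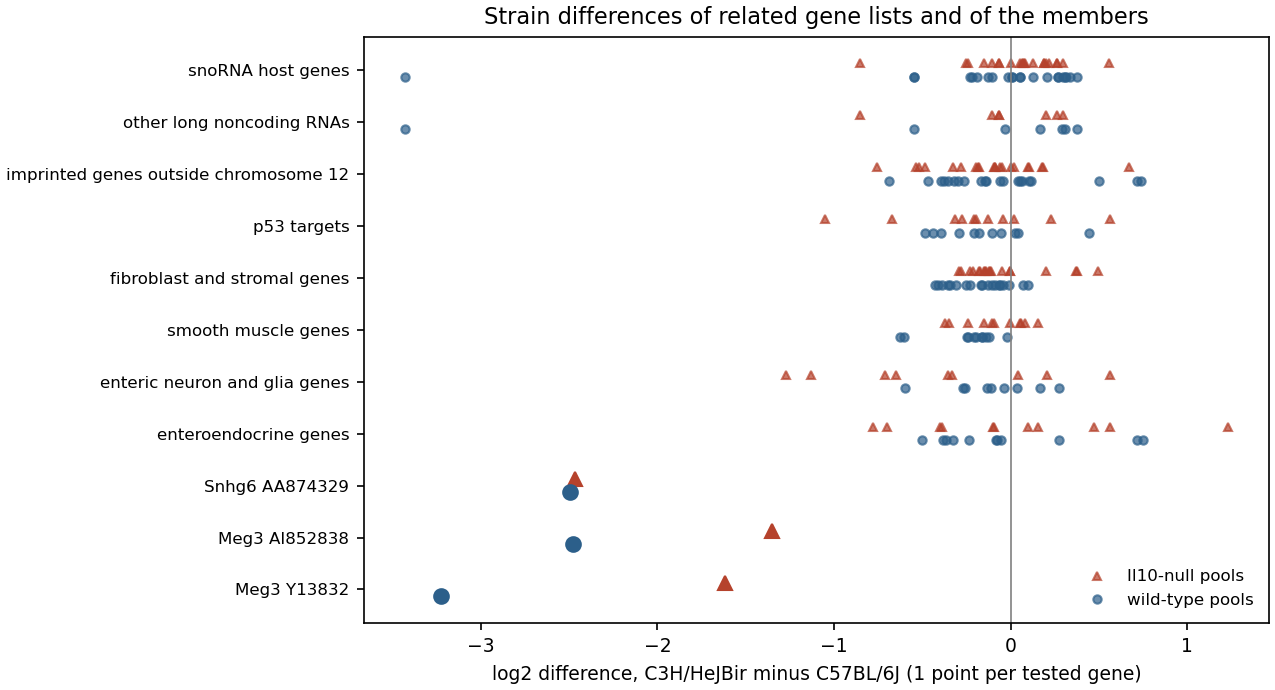
C3H/HeJBir minus C57BL/6J log2 difference of the tested genes of 8 lists (1 point a gene) and of the 3 member probe sets; triangles are Il10-null and circles wild-type pools. Genes of these 8 lists other than Gas5 lie between -1.27 and 1.23, and the members lie between -1.35 and -3.23. Of the 17 lists, some not drawn held wider differences. The leukocyte list reached 2.50 in Il10-null pools (Cd14), and the endocrine pancreas list 2.02 in wild-type pools.

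Whole colon holds several cell types, and their lists were read beside the members. In either direction, 0.134% to 0.215% of all tested probe sets were called between strains in a genotype, so lists this short would usually hold no call. None of 19 fibroblast and stromal, 11 smooth muscle, 9 enteric neuron and glia, 11 enteroendocrine, 5 endothelial, 19 colon epithelial, 12 exocrine pancreas and 3 endocrine pancreas genes tested was called between strains in either genotype. The summed intensity of the stromal list was 6743 to 10507 in C3H/HeJBir and 8263 to 10472 in C57BL/6J, that of smooth muscle 11778 to 20567 in C3H/HeJBir and 14505 to 18958 in C57BL/6J, and that of neurons and glia 940 to 1411 in C3H/HeJBir and 1126 to 1370 in C57BL/6J. The strains overlapped in each of these sums. The epithelial sum was 73298 to 75720 in C3H/HeJBir and 72536 to 81442 in C57BL/6J. The highest endocrine pancreas difference was 2.02 in wild-type and 1.83 in Il10-null pools, without a call. The sum of that list was 407 to 1044 in C3H/HeJBir and 251 to 448 in C57BL/6J. Without Ppy it was 119 to 241 in C3H/HeJBir and 138 to 231 in C57BL/6J. The lowest stromal and smooth muscle sums belonged to the C3H/HeJBir Il10-null sample 1 pool, in which Meg3 read 56.4 on AI852838, above both C3H/HeJBir wild-type pools, and 13.28 on Y13832, the lowest of the 8 pools. The part of cell content in the members' levels was not tested.

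Among leukocyte genes, Cd14 differed between strains. Of 10 tested, 1 was called higher in C3H/HeJBir in each genotype, where 0.161% of all tested probe sets were in Il10-null and 0.215% in wild-type pools, and 0 lower. Cd14, the co-receptor for bacterial lipopolysaccharide on myeloid cells, differed by 2.50 (limma adjusted p = 0.0112) in Il10-null and 2.34 (limma adjusted p = 0.00956) in wild-type pools. The leukocyte sum was 2876 to 5877 in C3H/HeJBir and 1086 to 1393 in C57BL/6J. Without Cd14 it was 2048 and 808 in C3H/HeJBir Il10-null and 1180 and 1124 in C3H/HeJBir wild-type pools, against 659 to 935 in C57BL/6J. Only the C3H/HeJBir Il10-null sample 2 pool lay within the C57BL/6J range. Besides Cd14, 1 list gene on the array had all C3H/HeJBir pools above all C57BL/6J pools, an order whose share was not counted.

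Genes whose levels ran most like those of Snhg6 over the 8 pools, by Pearson correlation on the log2 scale, were Pdxdc1 (0.988), Ybx1 (0.985), Arpc2 (0.982), Mtmr7 (0.981) and Lin7c (0.980). Arpc2, an actin-nucleating complex subunit, is on chromosome 1 like Snhg6, and the rest are on other chromosomes. Ybx1, which encodes a nucleic acid binding protein, read 1021 to 1199 in C3H/HeJBir and 4449 to 4811 in C57BL/6J. Arpc2 followed the same order with a much smaller step, 1450 to 1539 in C3H/HeJBir and 1762 to 1922 in C57BL/6J, so likeness here is of shape and not of size. The genes most opposed to Snhg6 were Gm15772 (-0.986), Hebp1 (-0.981) and Cap1 (-0.981).

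For Meg3 on AI852838 the most like genes were Cds2 (0.953), 4833420G17Rik (0.950), Ybx3 (0.949), Mir686 (0.945) and Emc10 (0.940), and the most opposed were Bcap29 (-0.981), Gosr2 (-0.969) and Hnrnpc (-0.953). Bcap29, on chromosome 12 like Meg3, read 78.6 to 86.0 in C3H/HeJBir Il10-null and 96.5 to 99.98 in C3H/HeJBir wild type, against 45.1 to 71.7 and 45.1 to 59.4 in C57BL/6J Il10-null and wild type. Its highest C57BL/6J value fell in the Il10-null sample 2 pool, which was lowest of its strain for Meg3 on AI852838. All these genes separate the strains, which the pools share, and the correlations are descriptions over 8 points.

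**Figure D5:**
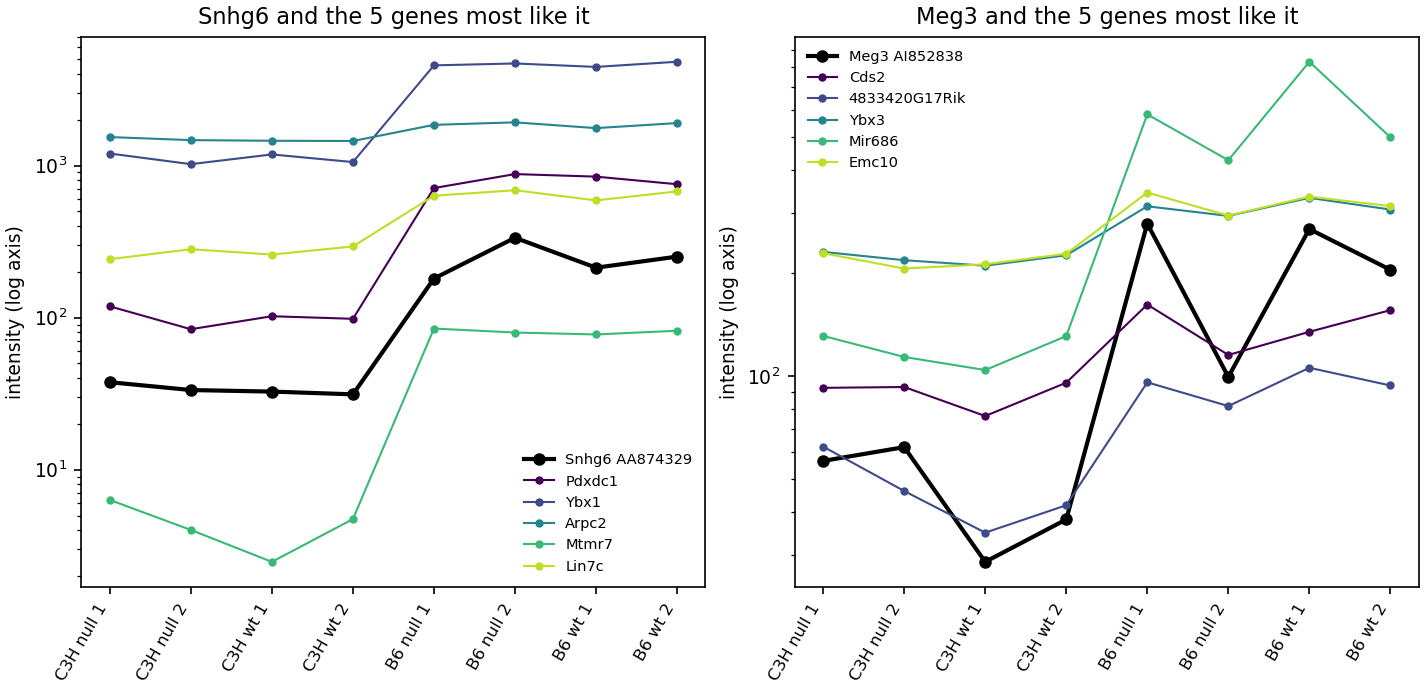
Deposited intensity (log axis) by pool of Snhg6 (left) and Meg3 on AI852838 (right), in black, with the 5 genes most like each; pools run C3H/HeJBir (C3H) Il10-null and wild type (wt), then C57BL/6J (B6) Il10-null and wild type. Every line steps up between the strains, and among the C57BL/6J pools Meg3 on AI852838 dips to 99.3 in the Il10-null sample 2 pool while Snhg6 peaks there at 335.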

How the data were processed

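One array per pool was analysed from the deposited table, in which the authors give 1 intensity per probe set on a linear scale (0.03 to 12860). The arrays' means trimmed by 2% differed by a ratio of 1.009, so the deposited scaling was kept. How probe signals were summarised and corrected for background, and detection calls, were not given in the sources used here. Probe sets were named from the platform annotation (10833 carried 1 symbol, 396 several, 1193 none), of which 10815 were matched to RefSeq GRCm38.p6, the source of gene order and sequences.

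Values were analysed as log2 of intensity plus 11.07, the 20th percentile. The 7453 probe sets with a mean of at least 37.0, the 40th percentile, were fitted with limma 3.58.1 in R 4.3.3, with 4 group means, no block, two-sided tests and Benjamini-Hochberg adjustment (4 residual and 4.23 prior degrees of freedom). The script was tested on simulated data. Where several probe sets carried a gene, the brightest stood for it. The 2 genes, the 17 lists and the tests were chosen with earlier results of these data known. Lists are described by counts and medians. Named are all member probe sets, the 5 most and 3 least like genes, and list genes that passed or, failing that, the widest. The labels number the pools but state no pairing. Deviations of same-numbered pools correlated at 0.198 to 0.332 over all pairs of groups, and sample number also separated the pools by Xist and by hybridisation day. The main fit did not use sample number, and a block on it (the replicate block) was an alternative. Alternatives covered pseudocounts, filters, scaling, moderation, blocks, days, probe sets, the threshold and leaving out each pool.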

Additional observations from a re-analysis of the deposited data

How the results depend on the processing

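No alternative that kept all pools brought past the threshold the Il10 effect on Snhg6 or Meg3 in C57BL/6J, or on AI852838 in C3H/HeJBir. For Snhg6 and Y13832, the effects in C3H/HeJBir are described by size only, as are the differences between strains on all tested member probe sets. The replicate block changed no call. It could not move an estimate, since every group held a sample 1 and a sample 2 pool, and the average Il10 effect kept 0.10 for Snhg6 and 0.11 for Meg3. Signs of small Il10 estimates did turn. Leaving out each pool in turn, the effect in C57BL/6J ran from -0.34 to 0.51 for Snhg6 and from -1.15 to 0.24 for Meg3, the difference between strains from -0.40 to 0.45 for Snhg6, from 0.43 to 1.82 for Meg3 and from 0.72 to 2.49 on Y13832, and the average from -0.11 to 0.31 for Snhg6 and from -0.24 to 0.45 for Meg3. Turns came without either C57BL/6J Il10-null pool and, for Snhg6, also without a C57BL/6J wild-type pool or the C3H/HeJBir Il10-null sample 1 pool. The Snhg6 difference was also -0.024 with the 50th percentile (56.7) as pseudocount and -0.33 within day 3, and the Meg3 average was -0.20 with a block on day and -0.20 within day 3. On Y13832, the effect in C3H/HeJBir ran from -0.010 to 1.77 and the average from -0.37 to 0.52, both lowest without the C3H/HeJBir Il10-null sample 2 pool, and the average was -0.071 with the larger pseudocount. The cause was not tested. Strain differences stayed negative on the tested probe sets, where no C3H/HeJBir pool reached any C57BL/6J pool, so only their sizes are read here. With the larger pseudocount, which shrinks them by construction, Snhg6 gave -1.73 in Il10-null and -1.70 in wild-type pools and Meg3 -1.70 in wild-type pools. In Il10-null pools, Snhg6 ran from -2.89 to -2.04 without a pool, and was -1.98 on day 1 and -2.96 on day 3. Meg3 there ran from -2.05, without the C57BL/6J sample 2 pool, to -0.65, without the C57BL/6J sample 1 pool, and was -2.10 on day 1 and -0.60 on day 3. The other probe sets gave -3.23 for Meg3 in wild-type pools (Y13832) and, for Snhg6 (AV008160, without the filter), 0.12 in Il10-null and -0.10 in wild-type pools. Of 34 list counts, all were equal without the filter, with quantile normalization and with the replicate block. Ppy was added to the endocrine pancreas count in wild-type pools at a threshold of 0.1, and 1 gene of that list in each genotype without the C3H/HeJBir Il10-null sample 1 pool, an alternative chosen after seeing the data. With 2 pools a group, small effects were not detectable.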

Other observations

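Snhg6 was close to the limit of the filter in C3H/HeJBir. At 31.3 to 37.6 there, its brighter probe set lay around the 40th percentile of probe set means (37.0) used as the filter, while in C57BL/6J, at 181 to 335, it lay above the 60th percentile (88.0). Mtmr7, a phosphoinositide phosphatase gene among those most like Snhg6, showed a wider step at a lower level, with 2.48 to 6.33 in C3H/HeJBir and 77.5 to 84.8 in C57BL/6J. Pdxdc1 read 83.9 to 119 in C3H/HeJBir and 711 to 879 in C57BL/6J.

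Vip, an enteric neuropeptide gene, read 4.64 in the C3H/HeJBir Il10-null sample 1 pool and 48.6 to 85.7 in the other pools.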
